A study of Rattus norvegicus with 31 samples.

Results

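Macrophage genes were followed in rat kidney cortex and colon, 8 of the 20207 gene symbols of the deposited table, namely Aif1, C1qa, C1qb, C1qc, Csf1r, Tyrobp, Lyz2 and Cd68. They were chosen by name as genes that macrophages express, with earlier results of these data known. All 8 symbols were found in the table. RNA was measured by sequencing in the kidney cortex and the colon of rats in 3 groups. NC is the normal control group, HS the high-salt model group, and CAL the group on high salt that was also supplemented with calcitriol, the hormonally active form of vitamin D. In the cortex there were 5 libraries of NC, 4 of HS and 6 of CAL. In the colon there were 5, 5 and 6 in the same order. High salt is shared by HS and CAL, so the comparison of CAL with HS is the one in which only the supplement differs per the labels, and there was no group given calcitriol without high salt among the samples analysed here. Strain, sex, age, salt content, dose and duration were not given in the sources used here. The RNA came from whole pieces of tissue, so no cells were sorted, and fewer macrophages and less RNA per macrophage cannot be told apart in any value below.

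Macrophages reside in nearly every organ, where they engulf dying cells and debris, present antigen and release complement and cytokines. Their survival depends on the receptor encoded by Csf1r, which binds the growth factors encoded by Csf1 and Il34, and their identity on the transcription factor Spi1. In the colon, macrophages of the lamina propria and the muscle layer are continually exposed to microbial products, while those of the kidney lie between the tubules. The 8 genes have different roles. Csf1r is the growth factor receptor, and Tyrobp (also called DAP12) is a membrane adaptor that passes signals from receptors such as Trem2 to the kinase Syk. C1qa, C1qb and C1qc encode the 3 chains of C1q, which is secreted and starts the classical complement pathway. Lyz2 encodes a secreted lysozyme that cuts bacterial cell walls, Aif1 (the protein Iba1) is a cytosolic calcium-binding protein that bundles actin, and Cd68 is a heavily glycosylated protein of lysosomes. None of these genes is read only in macrophages: Tyrobp and Lyz2 are also made by other myeloid cells, and Lyz2 has a close copy, Lyc2, with which short reads can be shared. Lyc2 had 0 to 6 counts in the cortex libraries and 0 to 3 in the colon libraries, so the split of reads between these copies is uncertain.

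The promoters of C1qa and C1qb are shown because these neighbouring genes varied together across libraries, and that of Lyz2 because its levels split the colon libraries into 2 sets. In the RefSeq gene table of assembly GRCr8, C1qb, C1qc and C1qa follow each other on chromosome 5 in that order with no other gene between them. RefSeq promoters on GRCr8 were matched for 5 of the 8 genes (C1qa, C1qb, Csf1r, Lyz2 and Cd68). The counts were made on Rnor_6.0, so the coordinates below do not apply to the build of the counts. Each sequence holds the 250 bases before the annotated start, on the minus strand, written 5′ to 3′. Capitals mark the purine-rich motif AGGAAGT, its close variant GGGAAGT and the shorter motif GAGGAA, or their reverse complements, all of which hold the core bound by ETS-family factors such as Spi1. C1qa lies at chr5:154419934-154420183, C1qb at chr5:154407828-154408077 and Lyz2 at chr7:54798012-54798261.

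C1qa: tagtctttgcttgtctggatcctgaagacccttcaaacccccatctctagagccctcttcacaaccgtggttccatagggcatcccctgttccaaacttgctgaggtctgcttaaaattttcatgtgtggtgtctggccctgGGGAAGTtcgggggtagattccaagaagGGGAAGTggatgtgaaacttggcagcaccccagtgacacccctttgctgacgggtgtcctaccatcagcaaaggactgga
C1qb: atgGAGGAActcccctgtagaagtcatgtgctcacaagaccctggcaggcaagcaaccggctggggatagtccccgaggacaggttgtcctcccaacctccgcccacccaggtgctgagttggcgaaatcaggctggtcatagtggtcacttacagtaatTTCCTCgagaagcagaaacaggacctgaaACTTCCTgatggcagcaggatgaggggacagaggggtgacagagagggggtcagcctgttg
Lyz2: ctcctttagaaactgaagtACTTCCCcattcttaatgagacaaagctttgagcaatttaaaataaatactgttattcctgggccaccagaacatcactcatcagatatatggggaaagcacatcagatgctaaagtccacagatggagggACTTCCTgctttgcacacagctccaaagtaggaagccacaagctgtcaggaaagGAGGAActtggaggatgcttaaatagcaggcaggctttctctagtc

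In the C1qa window GGGAAGT began at positions -108 and -80 from the start. In that of C1qb, AGGAAGT lay on the opposite strand at -61, and GAGGAA at -247 and, on the opposite strand, at -90. The Lyz2 window held AGGAAGT at -100 and GGGAAGT at -231, both on the opposite strand, and GAGGAA at -46. Of 33469 rat promoters of the same length, 7.08% held AGGAAGT, 4.76% GGGAAGT and 23.3% GAGGAA on either strand, and the motifs AGGAAGT and GAGGAA can overlap. The motif TATAAA (12.9% of all promoters, both strands) was found in none of the 5 matched windows. These matches describe the letters alone.

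Libraries were shallow. Total counts ran from 289529 to 2265164 in the 15 cortex libraries and from 267976 to 918820 in the 16 colon libraries. The 8 genes together held 289 to 1253 counts per cortex library and 293 to 1855 per colon library. A count of 0 allows up to 1.36 to 10.5 CPM (counts scaled to a fixed library total) in the cortex and up to 3.41 to 11.6 CPM in the colon, taking 3 counts as the limit and covering counting error only. Levels are CPM scaled by the trimmed mean of M values (TMM), either within a tissue or, for members' values set between tissues, over all 31 libraries. Sums over lists of genes were scaled within each tissue, also where sums of both tissues are given, so such sums compare only roughly. Marker genes matched the labelled tissues: 14 kidney cortex genes summed to between 17380 and 26130 CPM in the cortex and to between 29.0 and 173 CPM in the colon, and 10 colon genes to between 19110 and 32920 CPM in the colon and to between 1709 and 7520 CPM in the cortex. All 8 members were counted in every library of both tissues, but several other genes that define macrophages were barely counted. Vsig4 was at 0 in every library, Cd163 was at 0 in 12 of the 15 cortex libraries, and Itgam was at 0 in 12 cortex and 5 colon libraries. Colon HS replicates 3 and 4 stood apart from the other colon libraries on the first principal component (41.5% of the variance). They were at -52.9 and -20.3 where the others lay between -11.0 and 14.2. Some colon results of the members and lists, not all of them, are therefore also given without these 2 libraries.

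The clearest difference among these genes was between the tissues of the control rats. C1qa, C1qb, C1qc, Tyrobp and Aif1 were all higher in the colon than in the cortex, by between 2.0-fold and 6.60-fold, while Csf1r and Lyz2 did not pass. That is 5 of 7 tested members called by the edgeR quasi-likelihood test (Benjamini-Hochberg adjusted p at most 0.05 over 5992 genes), where 52.5% of all genes tested were called, 27.3% of all as higher in the colon. The control groups did not overlap for 4 of the 7, all higher in the colon, where 43.1% of all genes did not overlap and 21.8% did so as higher. With such a background a call between organs is common, and the size of the C1q difference is the result to read. The median log2 difference was 1.31 over the 7 members and 0.04 over all genes tested. These medians keep the sign, so higher and lower genes cancel. They do not show how common a difference of the size seen for C1q was among all genes.

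The 3 C1q chain genes had the largest tissue differences of the 7. In the NC cortex libraries, replicates 1 to 5, C1qb stood at 46.5, 39.96, 24.5, 41.2 and 42.9 CPM. In the NC colon libraries it stood at 233, 406, 174, 260 and 223 CPM. Every colon value lay above every cortex value. The mean rose from 39.0 ± 8.47 CPM (SD, n = 5) in the cortex to 259 ± 87.9 CPM (SD, n = 5) in the colon, a log2 difference of 2.72 (SE 0.26, 6.60-fold, 95% interval 4.55 to 9.58; edgeR adjusted p = 5.68e-11).

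C1qa, whose product forms trimers with the other chains, followed the same pattern. Its NC cortex values were 86.1, 52.6, 51.3, 58.2 and 61.3 CPM. Its NC colon values were 305, 449, 217, 332 and 236 CPM. The tissues did not overlap for C1qa, and the log2 difference was 2.32 (SE 0.24, 4.98-fold, 95% interval 3.54 to 7.02; edgeR adjusted p = 3.86e-10). C1qc, the remaining chain, was at 79.2, 47.3, 58.0, 48.5 and 79.8 CPM in the NC cortex. In the NC colon it was at 216, 412, 149, 306 and 272 CPM. C1qc did not overlap either, at a log2 difference of 2.13 (SE 0.24, 4.37-fold, 95% interval 3.10 to 6.16; edgeR adjusted p = 2.64e-09).

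The separation of the C1q genes was not limited to the controls. Over all groups, C1qa ran from 34.9 to 92.7 CPM in 15 cortex libraries and from 185 to 494 CPM in 16 colon libraries. C1qb ran from 20.6 to 51.2 CPM in the cortex and from 144 to 462 CPM in the colon. C1qc ran from 30 to 79.8 CPM in the cortex and from 149 to 412 CPM in the colon. No cortex library reached the lowest colon library for any of the 3 chains, whatever the diet; only the control groups were tested. Within a tissue the order of the group means had no neighbours that differed beyond their spread. C1qb means were, from the highest, 336 ± 135 CPM in HS colon, 259 ± 87.9 in NC colon, 233 ± 39.4 in CAL colon, 45.4 ± 6.21 in HS cortex, 39.0 ± 8.47 in NC cortex and 30.8 ± 7.87 in CAL cortex (SD, n = 5, 5, 6, 4, 5 and 6).

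Tyrobp, the signalling adaptor, differed between tissues by less. Its NC cortex libraries stood at 131, 81.0, 64.7, 60.6 and 87.9 CPM. Its NC colon libraries stood at 210, 306, 155, 170 and 221 CPM. The lowest colon control lay above the highest cortex control, and the log2 difference was 1.31 (SE 0.22, 2.49-fold, 95% interval 1.83 to 3.37; edgeR adjusted p = 3.76e-06). Over all groups the tissues did overlap for Tyrobp, because the lowest colon library (HS) was at 96.4 CPM and the highest cortex library (NC) at 131 CPM. Aif1, the actin-bundling protein, was at 121, 88.3, 55.7, 53.3 and 85.9 CPM in the NC cortex. In the NC colon Aif1 was at 174, 212, 118, 138 and 174 CPM. Colon replicate 3 fell just below cortex replicate 1, so the tissues overlapped by these 2 libraries, and the log2 difference was 0.999 (SE 0.22, 2.0-fold, 95% interval 1.47 to 2.72; edgeR adjusted p = 2.14e-04).

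Csf1r, the growth factor receptor, did not share that difference between the control tissues. Csf1r stood at 58.5, 39.96, 37.9, 60.6 and 49.1 CPM in the NC cortex. In the NC colon it stood at 42.3, 46.3, 59.0, 38.9 and 37.5 CPM. These ranges overlapped almost completely, and the log2 difference was -0.15 (SE 0.33, 95% interval -0.81 to 0.51; edgeR adjusted p = 0.726). The upper bound of that interval, 0.51, lies below the lower bounds of the C1q genes, of which the lowest is 1.63. The difference between Csf1r and the C1q genes was not itself tested.

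Lyz2, the lysozyme gene, did not pass between the tissues, and 1 library moved its value. It was at 1054, 644, 633, 478 and 644 CPM in the NC cortex. The NC colon libraries were at 1175, 310, 382, 229 and 277 CPM. Colon replicate 1 was the highest of all 10 controls while the other 4 colon libraries lay below every cortex control. The log2 difference was -0.55 (SE 0.54, 95% interval -1.65 to 0.55; edgeR adjusted p = 0.411). Without colon replicate 1 it was -1.2 (adjusted p = 0.0726), and with all libraries under voom with library quality weights it was -0.86 and passed (adjusted p = 0.0429). Cd68, the lysosomal glycoprotein, was too sparse in the cortex (3 to 16 counts per library) to pass the filter on low counts. Cd68 stood at 20.7, 16.8, 6.69, 16.97 and 26.6 CPM in the NC cortex. In the NC colon it stood at 31.8, 39.2, 18.6, 52.3 and 16.9 CPM. The tissues overlapped, and with no filter the log2 difference was 0.86 (edgeR adjusted p = 0.0569). Where leaving out 1 of the 4 HS cortex libraries let Cd68 through the filter, the difference was 0.85 to 0.87 with adjusted p of 0.0285 to 0.0344.

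**Figure D1:**
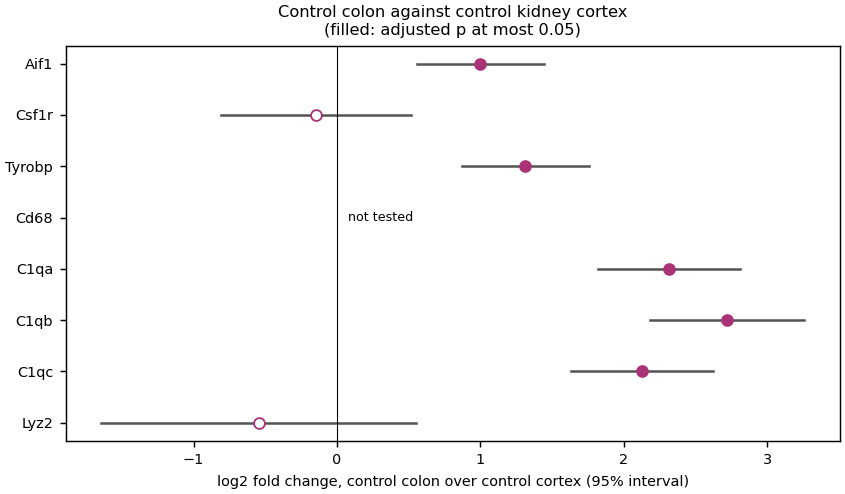
Log2 fold change of each macrophage gene in control colon over control kidney cortex (n = 5 each), from the edgeR fit over all 31 libraries; points are estimates, bars 95% intervals, and filled points have an adjusted p at most 0.05. The C1q chain genes lie farthest to the right (2.13 to 2.72), Tyrobp and Aif1 at 1.31 and 0.999, Csf1r and Lyz2 span 0, and Cd68 was not tested.

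Other genes of macrophages and of their signalling were split between the tissues. List medians were 1.26 for macrophage genes, 0.53 for the Csf1r axis, 0.22 for complement and -1.08 for lysosomes. The median was -0.14 for the adaptor list, which holds Fcer1g, receptors around Tyrobp or Fcer1g and kinases downstream. Of the 22 further macrophage genes found in the table, 4 could be tested and 2 were higher in the colon: the cysteine protease Ctss (61.0 to 548 CPM, log2 difference 3.17, edgeR adjusted p = 2.50e-16) and Cd83 (2.07, adjusted p = 0.00102). Cybb, the oxidase subunit, was at 0.45 (adjusted p = 0.357) and Ly86 at 0.42 (adjusted p = 0.494). From a list of macrophage activation genes only Lgals3 could be tested. Lgals3 was higher in the colon by 7.11 (edgeR adjusted p = 1.09e-19). Along the Csf1r axis 2 of 7 genes were higher and 2 lower in the colon. Spi1 was higher by 1.30 (adjusted p = 0.0108) and the myeloid transcription factor Irf8 by 2.67 (adjusted p = 1.74e-06), while Il34, a Csf1r ligand made by tubule cells among others, fell by 1.43 (adjusted p = 4.42e-04) and Csf2rb, the shared receptor chain for other myeloid growth factors, fell by 4.17 (adjusted p = 7.74e-12). Il34 means within each tissue's own scaling were 59.3 ± 11.8 CPM in the NC cortex and 24.3 ± 9.41 CPM in the NC colon (SD, n = 5). Csf1, the other ligand, was too low to test, at 4.10 ± 3.29 and 7.17 ± 2.74 CPM.

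Of the adaptor list 3 genes could be tested. The inhibitory receptor Sirpa fell by 1.16 (edgeR adjusted p = 0.0319) and the kinase Lyn stood at 0.79 (adjusted p = 0.0525). Fcer1g, the adaptor most like Tyrobp, stood at -0.14 (adjusted p = 0.668). Trem2 itself stood at 3.63 ± 2.72 CPM in the NC cortex and 8.23 ± 4.86 in the NC colon (SD, n = 5) and was not tested. In the complement list, 4 of 10 genes were higher and 2 lower in the colon. C1s, one of the C1 proteases, was higher by 1.99 (adjusted p = 2.48e-08), and the complement inhibitors Cd55 and Cd59 by 5.46 and 1.90 (adjusted p = 3.55e-11 and 1.02e-07). Serping1, the inhibitor of the C1 proteases, fell by 1.79 (adjusted p = 9.15e-06). C1qbp, a mitochondrial protein that can bind C1q, was lower by a log2 difference of -1.25 (adjusted p = 1.25e-07). Lysosomal genes went mostly the other way, with 14 of 23 lower and 4 higher in the colon, led by Lgmn (-4.42), Ctsh (-3.25), Ctsl (-3.20) and Ctsa (-2.34). Their adjusted p ran from 1.72e-19 to 1.96e-13. Lysosomal genes are expressed strongly by tubule cells as well.

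Genes of other blood cells also differed between the tissues, some higher and some lower in the colon. All 3 tested erythrocyte genes were lower in the NC colon (median log2 difference -2.98). Of 11 tested genes that most leukocytes express, 8 were higher and none lower in the NC colon, led by Lsp1 (1.95), Ptprc (2.81), Rac2 (1.67) and Laptm5 (1.42), with edgeR adjusted p of 1.10e-04, 5.09e-04, 0.00239 and 0.00715. Their sum over 15 genes, scaled within each tissue, was 744 to 1252 CPM in the NC cortex and 1337 to 3500 CPM in the NC colon. B and plasma cell genes summed to 146 to 169 CPM in the NC cortex and to 517 to 1088 CPM in the NC colon. T and NK cell genes summed to 53.2 to 123 and 116 to 472 CPM. Neutrophil genes summed to 10.2 to 28.4 CPM and 26.3 to 83.0 CPM, with Fpr1, Mpo and Elane at 0 in every cortex library and at most 2 counts in the colon. These sums were not tested, and the tissues overlapped for the T and NK cell and the neutrophil sums. The B and plasma cell list and the T and NK cell list had 1 tested gene each, and neither passed. No neutrophil gene passed the filter for this comparison. The part of these cells in the levels of Tyrobp, Aif1 and Lyz2 was not tested.

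In the kidney cortex, none of the macrophage genes passed the test under high salt. The members' log2 changes from NC to HS lay between -0.66 and 0.20, with 4 up and 3 down. Of 7 tested members 0 were called by the edgeR quasi-likelihood test, where 11% of 7524 genes were called, and 1 had an unadjusted p under 0.05, as 27.3% of all genes did; DESeq2 also called 0. Groups overlapped for all 7, where 13.1% of all genes did not overlap. The median change was 0.10 for the members and -0.01 for all genes tested.

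Tyrobp had the smallest p of the 7, with lower values in HS. Its NC libraries, scaled within the cortex, were at 108, 65.4, 52.2, 49.3 and 71.7 CPM. The 4 HS libraries were at 37.7, 50.4, 31.6 and 50.1 CPM. All 4 HS libraries lay below the NC mean, but 2 of them were just above the lowest NC library. The mean went from 69.3 ± 23.4 CPM (SD, n = 5) to 42.4 ± 9.36 CPM (SD, n = 4), a log2 change of -0.66 (SE 0.23, 95% interval -1.13 to -0.18; edgeR adjusted p = 0.0638). Without NC replicate 4, the lowest control, the change was -0.75 and passed (adjusted p = 0.048). CAL libraries ran from 39.8 through a median of 54.0 to 63.3 CPM, between the other groups, and CAL against HS stood at 0.21 (SE 0.23, adjusted p = 0.701).

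Genes of the adaptor list showed values of the same sign without passing. All 4 that were tested were negative between HS and NC. They were Sirpa at -0.60 (edgeR adjusted p = 0.150), Fcer1g at -0.48 (0.207), Fcgr3a at -0.41 (0.356) and Lyn at -0.17 (0.800). The list is drawn around Tyrobp or Fcer1g, so its genes are not partners of Tyrobp alone. Erythrocyte genes differed between the same groups, with a sum of 3938 to 20370 CPM in NC, 1041 to 1920 in HS and 3615 to 6960 in CAL. Their part in the Tyrobp values was not tested. T and NK cell genes summed to 53.2 to 123 CPM in NC and 35.8 to 70.1 CPM in HS, and neutrophil genes to 10.2 to 28.4 and 6.65 to 21.0 CPM.

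Aif1 and the C1q genes did not pass from NC to HS, and whether they differed from Tyrobp was not tested. Aif1 was at 99.2, 71.4, 45.01, 43.4 and 70.1 CPM in the NC cortex. It was at 57.6, 99.2, 80.6 and 57.3 CPM in the HS cortex. The groups overlapped, with means of 65.8 ± 22.9 and 73.7 ± 20.2 CPM and a log2 change of 0.13 (SE 0.23; edgeR adjusted p = 0.759). In CAL, Aif1 ran from 36.4 through a median of 44.1 to 61.8 CPM, with all 6 libraries below the HS mean. CAL against HS stood at -0.68 (SE 0.23, 95% interval -1.14 to -0.21; unadjusted p = 0.0061, edgeR adjusted p = 0.145). The CAL range reached above the lowest HS library, so the groups overlapped by 1 CAL library.

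The C1q chain genes stood at 0.11 (C1qa), 0.20 (C1qb) and -0.22 (C1qc) from NC to HS, with edgeR adjusted p of 0.805, 0.625 and 0.607. From HS to CAL they stood at -0.49, -0.61 and -0.06, with adjusted p of 0.309, 0.230 and 0.939. C1qb illustrates the spread: NC libraries were at 38.3, 32.3, 19.8, 33.5 and 35.0 CPM. HS libraries were at 42.1, 33.6, 42.1 and 33.4 CPM, and CAL libraries ran from 16.8 through a median of 25.8 to 34.2 CPM. All 4 HS libraries lay above the NC mean and 2 of them above every NC library, with the other 2 inside the NC range. Csf1r stood at -0.16 from NC to HS (means 40.1 ± 8.68 and 36.8 ± 11.2 CPM, adjusted p = 0.718) and at -0.36 from HS to CAL (CAL mean 28.0 ± 8.34 CPM, adjusted p = 0.524). Lyz2 stood at 0.10 and -0.31 (means 563 ± 180, 605 ± 90.1 and 488 ± 85.4 CPM, adjusted p = 0.761 and 0.377). For Lyz2 the 95% interval of the first change, -0.27 to 0.46, is the narrowest among the 7 members.

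Calcitriol with high salt gave no call among the macrophage genes of the cortex either. Between CAL and HS 0 of 7 were called by edgeR quasi-likelihood (0.758% of all genes) and 0 by DESeq2, 3 had an unadjusted p under 0.05 (16.2% of all genes did), and 6 of 7 values were negative. Groups overlapped for all 7 members, where 4.17% of all genes did not. The median was -0.36 for the members and -0.01 for all genes tested. Between CAL and NC 0 of 7 were called, where edgeR called 0.0% of all genes. All 7 values of CAL against NC were negative, between -0.55 (Aif1) and -0.21 (Lyz2), with adjusted p from 0.289 to 0.621 and 3 unadjusted p under 0.05 (11.9% of all genes had one), and a median of -0.40 where all genes had 0.00. DESeq2 called 0 of the 7 there as well. The groups overlapped for all 7, where 1.06% of all genes did not. These 2 comparisons share the CAL libraries, so their like signs are not independent. Cd68, with no filter on low counts, stood at -0.18 for HS against NC, -0.60 for CAL against HS and -0.78 for CAL against NC (edgeR adjusted p = 0.903, 0.628 and 0.548).

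**Figure D2:**
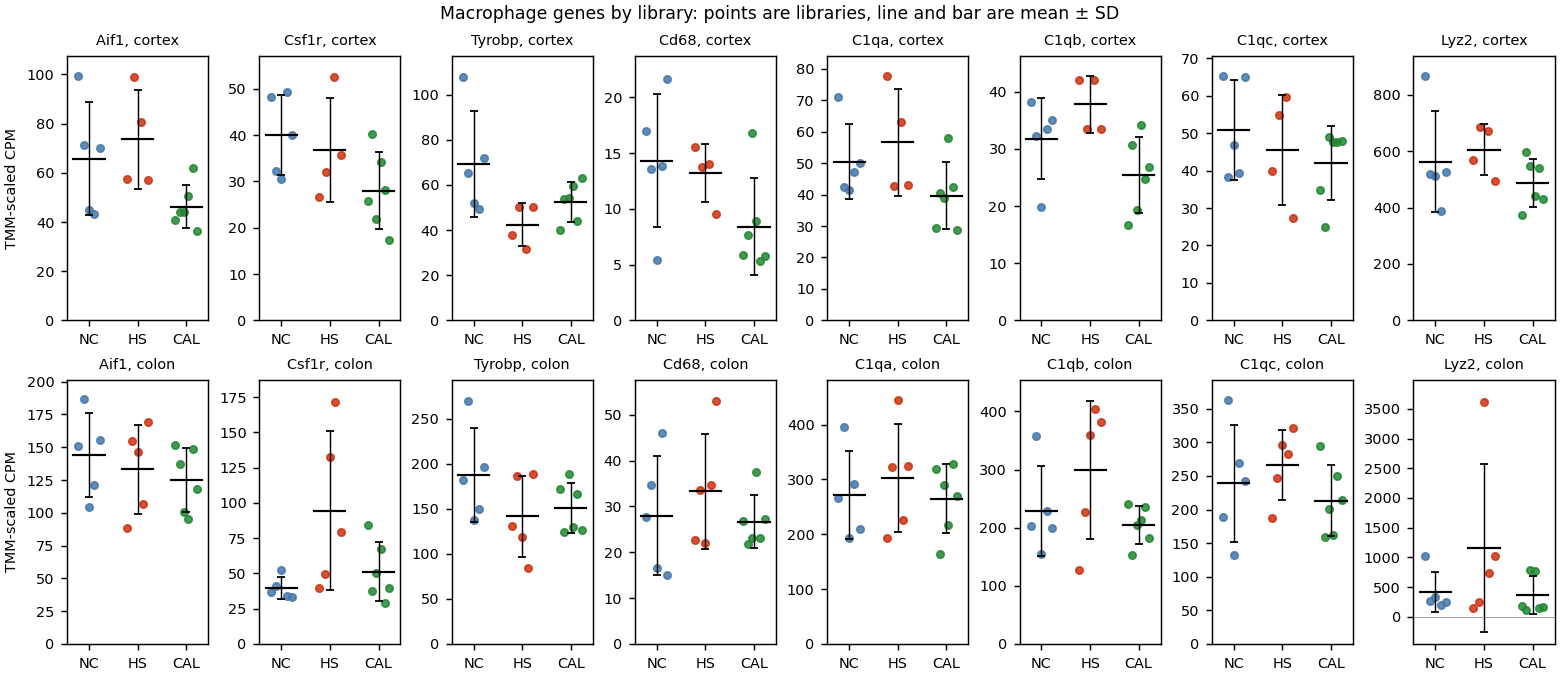
Level of each macrophage gene in every library, as CPM scaled by TMM within the tissue, for kidney cortex (top row) and colon (bottom row) in NC, HS and CAL; points are libraries, the line and bar are the mean and SD. Groups overlap in each panel, and the widest spread in CPM is that of Lyz2 in HS colon, where the highest library is at 3608 CPM. The highest Csf1r library, at 171 CPM, is also in HS colon.

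Related genes in the cortex were called in small numbers. Over all 7524 genes tested, edgeR called 11% from NC to HS, 553 genes as higher and 278 as lower. From HS to CAL it called 0.758%. Between HS and NC, none of the 4 tested macrophage genes outside the members passed, and all 4 were negative (Cybb -0.21, Cd83 -0.16, Ctss -0.07 and Ly86 -0.08, edgeR adjusted p from 0.721 to 0.914). Along the Csf1r axis Csf2ra fell by 1.31 (adjusted p = 0.0217) and Tfec rose by 1.17 (adjusted p = 0.0394), and Il34 stood at -0.27 (adjusted p = 0.469). Csf2ra was lost in 3 of 15 fits that left out a library (highest adjusted p 0.0874) and Tfec in 6 (0.199). In the lysosome list 4 of 23 genes rose: Lamp2 (0.62), Laptm4a (0.44), Ctsl (0.48) and Asah1 (0.56), with adjusted p of 0.0171, 0.0182, 0.0212 and 0.0323. Each was lost when single libraries were left out, Lamp2 without HS replicates 1 or 4 (up to 0.0871), Laptm4a without HS replicates 1 or 2 (0.0654), Ctsl without HS replicate 1 (0.142) and Asah1 in 7 fits (0.0991). Ctsl then fell by 0.61 from HS to CAL (edgeR adjusted p = 0.0221), a call that HS replicates 1, 2 and 4 each carried (up to 0.148 without one of them). The complement inhibitor Cd59 rose by 0.54 from NC to HS (adjusted p = 0.0277) and was lost in 7 fits (0.0693). Among genes that most leukocytes express, 9 of 11 tested were negative from NC to HS (median -0.14). Rac2, a GTPase of blood cells, fell by 0.997 and Cd48, a leukocyte adhesion protein, rose by 0.77 (edgeR adjusted p = 0.0367 for both), and the chemokine Ccl5 of the T and NK cell list fell by 1.29 (adjusted p = 0.0437). These calls were lost in 5, 7 and 7 of the 15 fits that left out a library (highest adjusted p 0.125, 0.145 and 0.143). Cst3, the only gene tested from a list of dendritic cell markers, rose by 0.67 from NC to HS (edgeR adjusted p = 0.0027). It passed in all 15 fits that left out a library (highest adjusted p 0.0107). Cst3 stood at means of 886 CPM in NC and 1407 CPM in HS. Flt3, Xcr1, Clec9a and Cd209 of the same list had at most 2, 3, 3 and 0 counts in any cortex library. The call is therefore of Cst3 alone and says nothing of dendritic cells. Ptprc, which all leukocytes express, was at 10.6 ± 4.16 CPM in NC, 20.1 ± 3.07 in HS and 12.7 ± 4.91 in CAL (SD, n = 5, 4 and 6). Its change from NC to HS was 0.89 without overlap between the groups, and it did not pass (adjusted p = 0.102).

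In the colon, the macrophage genes did not pass the test under high salt. Of 8 tested members 0 passed for HS against NC in the edgeR fit (0.0% of 7217 genes) and 0 by DESeq2, and 1 had an unadjusted p under 0.05 (8.51% of all genes did). The groups overlapped for all 8, where 1.4% of all genes did not. The values were positive for 6 of 8, with a median of 0.16 where all genes had 0.04.

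Csf1r had the largest contrast relative to its error. Its NC libraries were at 36.9, 40.9, 52.4, 34.2 and 33.4 CPM, scaled within the colon. The HS libraries were at 39.7, 49.4, 133, 171 and 79.5 CPM. All 5 HS libraries lay above the NC mean, and 3 lay above every control, with replicates 3 and 4 the highest. The mean went from 39.6 ± 7.75 to 94.5 ± 56.2 CPM (SD, n = 5 each), a log2 change of 1.25 (SE 0.37, 95% interval 0.48 to 2.02; edgeR adjusted p = 0.330). Without HS replicates 3 and 4 it was 0.47 (adjusted p = 0.879). CAL libraries ran from 29.0 through a median of 44.8 to 84.1 CPM, and CAL against HS stood at -0.82 (SE 0.35, adjusted p = 0.424), or at -0.03 (adjusted p = 0.997) without those 2 libraries.

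Whether Csf1r behaved differently in the tissues was tested as the colon change minus the cortex change. That difference was 1.42 from NC to HS (SE 0.48; edgeR adjusted p = 0.154), and it passed without HS colon replicate 1 (1.64, adjusted p = 0.0424). Without HS colon replicates 3 and 4 it was 0.63 (adjusted p = 0.687). Of the 7 members tested for a difference between tissues, 0 were called for HS against NC (0.250% of 5992 genes) and 0 for CAL against HS (0.0%). DESeq2 called 0 in both, and unadjusted p under 0.05 were found for 1 and 0 of the 7.

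Lyz2 varied most among the colon libraries. In NC it was at 1024, 273, 339, 201 and 247 CPM. In HS it was at 152, 249.1, 3608, 740 and 1020 CPM. In CAL the 6 libraries ran from 115 through a median of 176 to 783 CPM. Within each group some libraries stood at 740 CPM or more and the others at 339 CPM or less, so the groups overlapped widely. The log2 change was 1.47 from NC to HS (SE 0.71, 95% interval -0.02 to 2.95; edgeR adjusted p = 0.583) and -1.67 from HS to CAL (SE 0.68; adjusted p = 0.398). Without HS replicates 3 and 4 these became 0.15 (adjusted p = 0.994) and -0.35 (adjusted p = 0.983).

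The C1q genes, Tyrobp, Aif1 and Cd68 did not pass in the colon either. C1qb was at 203, 358, 154, 229 and 199 CPM in NC. Its HS libraries were at 127, 227, 359, 405 and 381 CPM. Replicates 3, 4 and 5 of HS lay above the highest control, replicate 3 by about 1 CPM, and replicate 1 lay below every control. The log2 change for C1qb was 0.37 (SE 0.28; edgeR adjusted p = 0.752), and CAL against HS stood at -0.53 (SE 0.27; adjusted p = 0.493). Without HS replicates 3 and 4 these became 0.05 (adjusted p = 0.994) and -0.21 (adjusted p = 0.964). C1qa and C1qc each stood at 0.15 from NC to HS (adjusted p = 0.927 for both), with 95% intervals of -0.38 to 0.68 and -0.37 to 0.66. Tyrobp was at 183, 270, 138, 150 and 197 CPM in NC. It was at 131, 186, 119, 84.4 and 189 CPM in HS, where replicate 4, the library with the highest Csf1r, had the lowest Tyrobp of the colon. Its change was -0.41 (SE 0.24; adjusted p = 0.662). Aif1 stood at -0.13 (adjusted p = 0.927) and Cd68 at 0.18 (means 28.0 ± 12.9 and 33.2 ± 12.5 CPM, adjusted p = 0.937).

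Between CAL and HS 0 of 8 members were called in the colon by edgeR (0.0139% of all genes) or DESeq2, 2 had an unadjusted p under 0.05 (Csf1r and Lyz2; 10.5% of all genes did), and 7 of 8 were negative with a median of -0.28 where all genes had -0.03. The groups overlapped for all 8, where 0.527% of all genes did not. Without HS replicates 3 and 4 all 8 were negative, with a median of -0.17. Among genes of most leukocytes, 12 of 13 were negative (median -1.33, or -0.16 without those 2 libraries). Medians were -1.25 for T and NK cell genes and -1.33 for B and plasma cell genes (0.82 and -0.08 without them). Smooth muscle genes had -0.90 (-1.34 without them) and erythrocyte genes 2.01 (2.0). Their part in the members' values was not tested. Between CAL and NC edgeR called 0 of 8 (0.0% of all genes), DESeq2 called 0 and none had an unadjusted p under 0.05, with values from -0.31 (Tyrobp) to 0.43 (Csf1r), a median of -0.16, and 0.679% of all genes free of overlap. CAL means were close to NC means for C1qa (265 ± 63.0 and 272 ± 80.4 CPM) and for Cd68 (26.6 ± 5.78 and 28.0 ± 12.9 CPM), with 95% intervals of the log2 difference of -0.55 to 0.47 and -0.76 to 0.60.

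**Figure D3:**
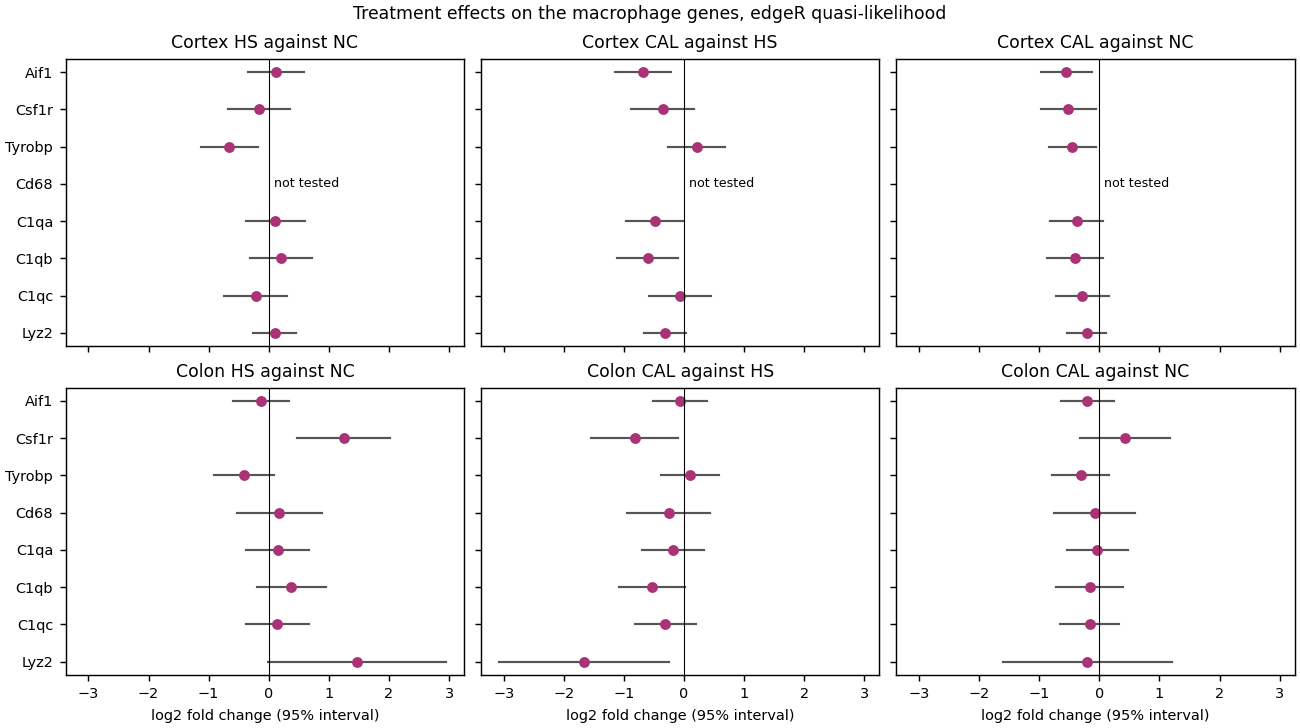
Log2 fold changes of the macrophage genes in the 3 comparisons of each tissue, with 95% intervals from the edgeR quasi-likelihood fit. For HS against NC, the narrowest interval of the cortex is that of Lyz2 (-0.27 to 0.46). The widest of all is that of Lyz2 in the colon (-0.02 to 2.95 for HS against NC). No adjusted p was at most 0.05, and Cd68 was not tested in the cortex.

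Genes related to the members did not pass in the colon. For HS against NC, edgeR called 0 of 12 macrophage, 0 of 7 Csf1r axis and 0 of 9 adaptor list genes. It also called 0 of 12 complement and 0 of 26 lysosome genes. In the same order, 2, 2, 3, 3 and 5 genes of these lists had an unadjusted p under 0.05. Over all 7217 genes edgeR called 0 and DESeq2 called 15, and 614 had an unadjusted p under 0.05. The medians of these lists were 0.07, 0.61, 1.06, 0.33 and 0.08 where all genes had 0.04. All 9 adaptor list genes were positive. Genes of other cells moved with the same groups, with no call: 12 of 13 genes of most leukocytes were positive (median 1.24), as were 6 of 6 of T and NK cells (1.43) and 9 of 9 of B and plasma cells (1.84), while 3 of 3 of erythrocytes were negative (-2.59). Their part in the values of Csf1r and of the adaptor list genes was not tested. Without HS replicates 3 and 4, 5 of 12 adaptor list genes then tested were positive (median -0.10). Medians were then -0.07 for the Csf1r axis and 0.06 for genes of most leukocytes. T and NK cell genes had -0.68 and B and plasma cell genes 0.43. Irf8 stood at 1.25 (adjusted p = 0.39), Lyn at 1.16 (0.330), Cd83 at 1.4 (0.503) and Il34 at 0.91 (0.564). Without those 2 libraries they stood at 0.26, 0.57, 0.58 and 0.83, with adjusted p of 0.938, 0.811, 0.908 and 0.824. Among markers of tissue macrophages, Cd163 was at 18.9 ± 9.39 CPM in NC, 23.0 ± 19.9 in HS and 19.7 ± 5.70 in CAL (SD, n = 5, 5 and 6). Mrc1, the mannose receptor, was at 45 ± 17.3, 44.2 ± 33.6 and 37.2 ± 18.8 CPM. Neither Cd163 (0.17, adjusted p = 0.963) nor Mrc1 (-0.04, adjusted p = 0.991) passed from NC to HS, nor did they without HS replicates 3 and 4 (0.64 and 0.48, adjusted p = 0.879 and 0.881). Adgre1, the F4/80 antigen gene, was at 19.3 ± 9.77, 10.6 ± 7.41 and 9.81 ± 5.95 CPM and Cx3cr1 at 3.52 ± 4.01, 5.01 ± 5.33 and 3.83 ± 3.02 CPM, and neither was tested.

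The colon libraries with the highest Lyz2 were also those with the highest sums of leukocyte genes. The libraries were ranked by the sum of 15 genes that most leukocytes express, and the first 6 were considered because a gap followed them, a choice made after the values were seen. These 6 (HS replicates 3, 4 and 5, NC replicate 1, CAL replicates 3 and 4) had leukocyte sums of 2713 to 6877 CPM, against 1193 to 1715 CPM in the other 10. The same 6 had the 6 highest Lyz2 levels, 740 to 3608 CPM against 115 to 339 CPM in the rest. They also had the 6 highest sums of B and plasma cell genes, 1088 to 2559 CPM against 461 to 750 CPM. For T and NK cell genes 5 of the 6 were shared.

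The match was of 6 libraries against 10, not of their order: HS replicate 4 had the highest leukocyte sum and the lowest Lyz2 of the 6. The other members shared fewer of these libraries: Csf1r 4 of its 6 highest, C1qb, C1qc, Tyrobp and Cd68 3 each, and Aif1 and C1qa 2 each. The summed C1q genes, for example, were 593 to 1100 CPM in the 6 libraries and 476 to 1117 CPM in the rest. Tyrobp was 84.4 to 189 CPM in the 6 and 124 to 270 CPM in the rest. Neutrophil genes summed to 29.7 to 83.0 CPM in the 6 and 21.0 to 63.8 CPM in the rest, sharing 2 of their highest 6, and erythrocyte and smooth muscle genes shared 1 each. The 6 libraries were 1 of 5 NC, 3 of 5 HS and 2 of 6 CAL, and whether lymphoid tissue in the pieces set the Lyz2 values was not tested. Because the Lyz2 levels form 2 separate clusters, no single correlation of Lyz2 is given for the colon.

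**Figure D4:**
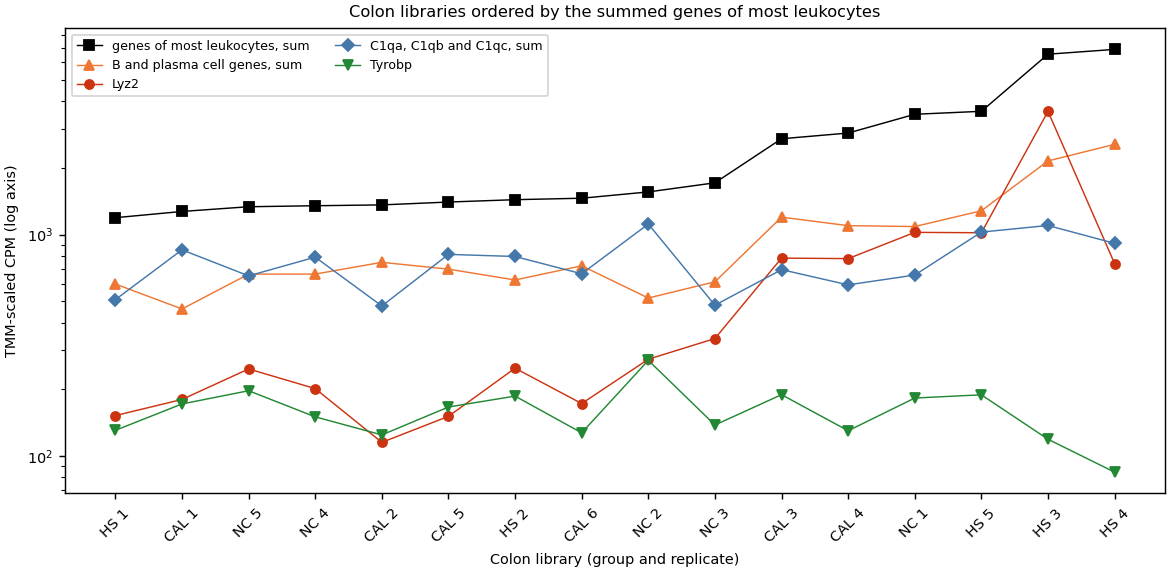
Colon libraries ordered from left to right by the summed genes of most leukocytes, with B and plasma cell genes, Lyz2, the summed C1q genes and Tyrobp, in CPM scaled within the colon on a log axis. The last 6 libraries have Lyz2 at 740 CPM or more and B and plasma cell sums at 1088 CPM or more, while the C1q sum and Tyrobp overlap between these 6 and the other 10.

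The share of the members' counts that came from Lyz2 also showed this, although such a share depends on transcript length as well. Lyz2 gave 58.5% to 71.1% (median 65.9%) of the 8 genes' counts in the cortex libraries. In the colon libraries it gave 11.3% to 70.4% (median 17.9%). The 3 C1q genes gave 11.5% to 19.0% in the cortex and 21.5% to 61.1% in the colon. The colon thus held both a larger share of C1q reads and a wider range of Lyz2 reads.

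The C1q chain genes varied together across the colon libraries, and in the cortex only C1qa with C1qb passed among them. In all, 49 correlations of log2 CPM between 2 members were computed, 21 in the cortex and 28 in the colon. In the colon (n = 16) C1qb and C1qc had Pearson's r = 0.815 (permutation p = 1.90e-04, adjusted p = 0.00931) and Spearman's rho = 0.874 (permutation p = 5.00e-05, adjusted p = 0.00122), with r = 0.807 without the 2 libraries farthest from the median of C1qb. C1qa and C1qc had r = 0.769 (permutation p = 6.40e-04, adjusted p = 0.0105) and rho = 0.835 (permutation p = 1.50e-04, adjusted p = 0.00245), and r = 0.735 without the 2 farthest. For C1qa and C1qb, r was 0.684 (permutation p = 0.0037, adjusted p = 0.0363) and rho 0.753 (permutation p = 0.00107, adjusted p = 0.0131), with r = 0.573 without the 2 farthest and 0.826 without HS replicates 3 and 4. These 3 were the only colon pairs to pass, and after subtracting the group means their r were 0.787, 0.765 and 0.676.

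In the cortex (n = 15) the pairs to pass were C1qa with C1qb and Aif1 with Lyz2. C1qa and C1qb had r = 0.767 (permutation p = 9.70e-04, adjusted p = 0.0119) and rho = 0.929 (permutation p = 1.00e-05, adjusted p = 4.90e-04), r = 0.717 without the 2 farthest libraries and r = 0.660 after subtracting group means. Aif1 and Lyz2 had r = 0.791 (permutation p = 4.80e-04, adjusted p = 0.0105) and rho = 0.736 (permutation p = 0.00224, adjusted p = 0.0220), r = 0.621 without the 2 farthest and r = 0.754 after subtracting group means. C1qa with C1qc (r = 0.355, permutation p = 0.195, adjusted p = 0.330) and C1qb with C1qc (r = 0.194, permutation p = 0.491, adjusted p = 0.651) did not pass in the cortex, with rho of 0.332 and 0.393 (permutation p = 0.227 and 0.150). Over the other pairs of members r was lower, with a median over all pairs of 0.424 in the cortex (range 0.0575 to 0.791) and 0.375 in the colon (-0.504 to 0.815). The most negative colon pair, Csf1r and Tyrobp, had r = -0.504 (permutation p = 0.0498, adjusted p = 0.126; rho = -0.294, permutation p = 0.269), and r = 0.0257 without its 2 farthest libraries, so it rests on them.

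HS colon replicates 4 and 5 had more C1qb for their C1qa than the NC and CAL colon libraries. The ratio of C1qb counts to C1qa counts was 0.764 to 0.944 in the 5 NC colon libraries and 0.674 to 0.978 in the 6 CAL colon libraries. In the HS colon it ran from 0.655 to 1.79, the latter in replicate 4, with 163 counts of C1qb and 91 of C1qa, and replicate 5 was at 1.17. These ratios were not tested.

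**Figure D5:**
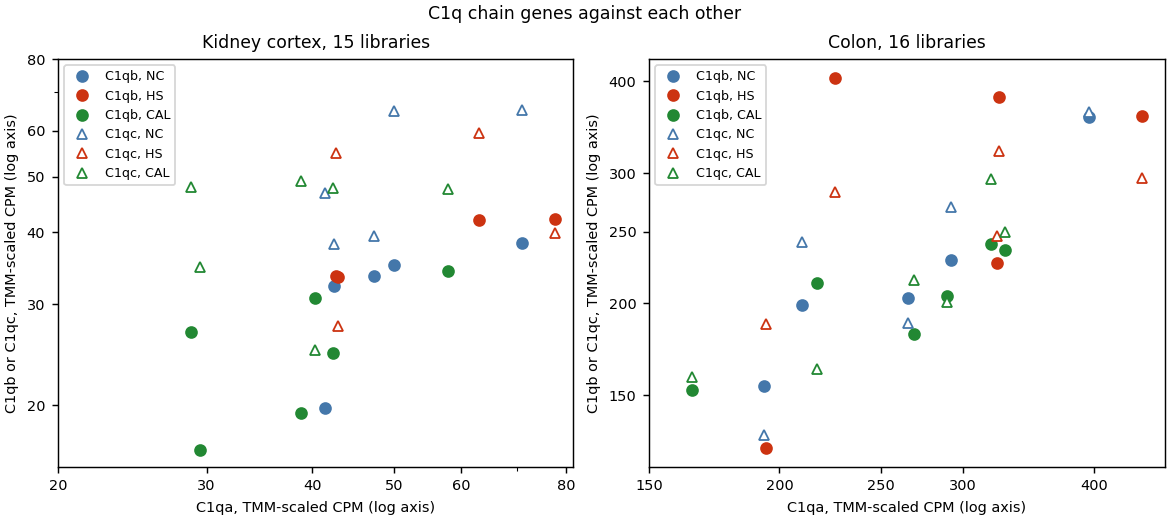
C1qb (filled circles) and C1qc (open triangles) against C1qa in each library, in CPM scaled by TMM within the tissue on log axes, for 15 cortex and 16 colon libraries coloured by group. Points rise together in the colon, and 1 HS library with C1qa at 226 CPM has C1qb at 405 CPM.

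The genes most like the macrophage genes across libraries differed between the tissues. Likeness was Pearson's r between a gene and the mean standardised log2 CPM of the tested members, given as a description, since the libraries share depth and scaling. In the 15 cortex libraries, against 7 members, the first 5 were the actin-binding thymosin gene Tmsb4x (r = 0.836), Tnfsf12 (0.768), Fxyd5 (0.738), Atp5pd (0.737) and Leprot (0.725). In the 16 colon libraries, against 8 members, they were Spag7 (0.850), Bnip2 (0.845), Gnpat (0.812), Spi1 (0.795) and Npm1 (0.776). The 99th percentile of r over all tested genes was 0.592 in the cortex and 0.615 in the colon. Spi1, the myeloid transcription factor, was at r = 0.820 without HS colon replicates 3 and 4.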

How the data were processed

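Gene counts came from RNA sequencing of 31 rat libraries (15 kidney cortex, 16 colon). The authors deposited raw read counts per gene symbol. Per the submitters' processing notes, FastQC 0.11.9, Trimmomatic 0.39, HISAT2 2.1.0 and featureCounts 1.6.5 were used with Rnor_6.0. The annotation and strand setting were not given in the sources used here, so overlapping or antisense genes cannot be told apart, and multi-mapping reads from near copies are uncertain. No library pair held identical values.

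From the deposited counts, edgeR 4.0.16 quasi-likelihood models (R 4.3.3, TMM scaling, filterByExpr with minimum count 10 and total 15) were fitted per tissue over all 3 groups, and over all 31 libraries for contrasts between tissues, and p-values were adjusted by Benjamini-Hochberg over all genes tested (threshold 0.05). The CPM used TMM factors, and log CPM a prior count of 2. The filter removed Cd68 from the cortex and joint fits. The scripts were tested on simulated data. Replicates are separate samples per the labels, with nothing on animals, so p-values measure the spread between samples, which may be technical. The 8 genes and 16 other lists (11 of 269 entries in all were not matched) were chosen with earlier results of these data known. Named genes were all members, 9 fixed markers such as Ptprc and Il34, and the 5 genes most like the members per tissue. From lists described gene by gene, up to 4 with the smallest p were named, and those past the threshold where 5 or fewer passed. Other lists were given as sums or left out, so not every called gene of a list is named. Some other genes were named after their values were seen. The fits were repeated with DESeq2 1.42.0, with edgeR scaled by size factors of the DESeq2 kind, without a filter, with a filter of 1 CPM in 4 libraries, on only the groups compared, with robust empirical Bayes, with voom and library quality weights (limma 3.58.1), with a replicate block, and with each library left out.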

Additional observations from a re-analysis of the deposited data

Results flagged for a closer look

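In 48 groups of 4 to 6 libraries (8 genes in each tissue and group), the highest and lowest libraries were set against Dixon's 95% limit, which chance passes in about 1 of 20 groups. Single libraries stood apart in 5 groups. Lyz2 did so in NC cortex replicate 1, at 867.6 CPM against 388 to 525 CPM in the other controls. It did so in NC colon replicate 1, at 1024 CPM against 201 to 339 CPM, and in HS colon replicate 3, at 3608 CPM against 152 to 1020 CPM. Both colon libraries belong to the 6 with the highest leukocyte sums. Cd68 stood apart in CAL cortex replicate 3, at 16.8 CPM, and in CAL colon replicate 4, at 37.55 CPM, and rests on few counts per library (3 to 16 in the cortex and 6 to 35 in the colon).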

How the results depend on the processing

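Counts of members past the threshold, 1 for each comparison of a fit, equalled those reported in 258 cases and differed in 7. The tissue count was 6 rather than 5 in 5 of these, with voom weights (through Lyz2) and without each of the 4 HS cortex libraries (through Cd68). The cortex HS against NC count ranged from 0 to 1 over fits without 1 library (1 without NC replicate 4, through Tyrobp), and the difference between tissues for HS against NC from 0 to 1 (1 without HS colon replicate 1, through Csf1r at 1.64). The 5 tissue calls held in all 31 fits without 1 library and under the other settings. Deviations of same-numbered libraries of different groups had r of -0.158 to 0.0675 in the cortex and -0.228 to 0.245 in the colon. Cortex and colon libraries of 1 group and number had r of -0.0421 to 0.245 (median 0.0499, positive in 14 of 15 pairs and over 0.1 in 6). For other numbers of the same group the median was -0.0131. CAL cortex replicate 6 and HS colon replicate 4, from different groups, had r = 0.345. Whether any libraries share an animal is not stated in the labels and was not tested. A replicate block of the pairs of 1 group and number was added after seeing the data. With it 5 members passed between tissues and 0 for the differences in response, with 3160, 64 and 0 of all genes. C1qa and C1qb then stood at -0.0649 and -0.019 for the difference in HS against NC. Tyrobp then stood at 0.00406 for that in CAL against HS. With the number alone as a replicate block 0 members passed for any treatment and 5 between tissues. Over all genes the cortex counts were 831, 57 and 0 for HS against NC, CAL against HS and CAL against NC, and 324 to 961, 2 to 80 and 0 to 40 without 1 library. With the block they were 845, 22 and 42, and with DESeq2 798, 105 and 28. In the colon, DESeq2 called 15, 11 and 0 where edgeR called 0, 1 and 0. Between tissues DESeq2 gave 3180 genes against 3144, and 52 and 9 against 15 and 0 for the differences in response. Of the single members' values 1878 kept direction and side, 3 newly passed, and 40 changed sign, all for changes whose adjusted p was 0.607 or more. Without 1 library these ranged, in the cortex from NC to HS, from -0.0772 to 0.314 for Aif1, -0.104 to 0.272 for C1qa, -0.369 to 0.0208 for C1qc and -0.00768 to 0.308 for Lyz2. From HS to CAL in the cortex C1qc ranged from -0.299 to 0.091. In the colon from NC to HS the ranges were -0.0411 to 0.319 for C1qa, -0.00944 to 0.341 for C1qc and -0.0309 to 0.44 for Cd68. From HS to CAL they were -0.184 to 0.036 for Aif1, -0.303 to 0.00604 for C1qa and -0.0344 to 0.227 for Tyrobp. For CAL against NC they were -0.134 to 0.137 for C1qa, -0.267 to 0.06 for C1qb, -0.311 to 0.0334 for C1qc, -0.595 to 0.455 for Lyz2 and -0.245 to 0.182 for Cd68. The differences between tissues ranged from -0.146 to 0.246 for C1qa (HS against NC) and -0.123 to 0.226 for C1qb (CAL against HS). With voom weights Tyrobp stood at -0.0559 for colon CAL against HS, and with no filter the C1qa tissue difference for HS against NC at -0.053. Without colon HS replicates 3 and 4, chosen after seeing the data, these stood at -0.135 and -0.084, the C1qb difference at -0.152 and that of Csf1r for CAL against HS at 0.369. The cause of these changes was not tested. Depth limits what can be said of Cd68, at 3 to 35 counts per library.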
